A study of Mus musculus with 7 samples.

Results

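MicroRNA loci of the blood system were examined for open chromatin in HPC7, a mouse hematopoietic progenitor cell line grown with stem cell factor. The members were 8 GENCODE M21 genes, the host genes Mir142hg and Mir17hg and the microRNA genes Mir223, Mir155, Mir150, Mir146, Mir144 and Mir451a. Mir144 and Mir451a overlap in their surroundings and were treated as 1 locus, which left 7 loci. Every open chromatin region (OCR) that overlapped a member gene or the 20 kb on either side of it was taken, on mouse build mm10. Peaks of different libraries that shared at least 1 bp were joined into 1 OCR, which gave 43 OCRs in the member loci out of 144931 in all. Bulk ATAC-seq had been performed on 7 HPC7 libraries, replicates 1, 2, 4, 5, 6, 7 and 8, each from its own culture batch. The labels give all 7 libraries the same line and name no treatment or genotype, so that no conditions could be compared. ATAC-seq uses the Tn5 transposase to insert adapters into accessible DNA, and the peak caller reports where the inserted reads pile up. HPC7 is a single cell line, and the values describe that line and no primary blood cell.

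MicroRNAs are short RNAs of the Argonaute complex that pair through their seed, bases 2 to 8 of the mature strand, with target messenger RNAs and lower their output. Most are cut from a long primary transcript by Drosha and Dgcr8 in the nucleus and by Dicer1 in the cytoplasm, whereas the hairpin of miR-451a is cut by Ago2 and not by Dicer1. The primary transcript can start many kilobases before the hairpin, so that the annotated start of a microRNA gene, which is the 5′ end of its hairpin, need not be a promoter. In blood, miR-142 is made in nearly all hematopoietic cells and the miR-17-92 cluster of Mir17hg is high in dividing progenitors. miR-223 is a microRNA of the myeloid lineage, miR-155 rises in activated lymphocytes and macrophages, miR-150 in mature lymphocytes and miR-146a after inflammatory signals. miR-144 and miR-451a are made together in erythroid cells.

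Mature strands that these loci encode are shown so that their seeds can be compared, taken from RefSeq (GRCm38.p6) and written 5′ to 3′ with the seed in capitals. RefSeq sequences were matched for 23 mature strands, of which some are shown. miR-150-5p is named only. Within the cluster of Mir17hg on chromosome 14, 2 pairs of strands share a seed, and these are placed next to each other.
miR-142a-5p: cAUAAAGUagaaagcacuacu
miR-142a-3p: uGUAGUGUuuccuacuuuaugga
miR-17-5p: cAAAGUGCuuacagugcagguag
miR-20a-5p: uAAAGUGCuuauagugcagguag
miR-19a-3p: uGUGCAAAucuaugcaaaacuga
miR-19b-3p: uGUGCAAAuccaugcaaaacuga
miR-18a-5p: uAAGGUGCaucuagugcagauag
miR-92a-3p: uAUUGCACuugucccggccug
miR-223-3p: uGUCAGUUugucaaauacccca
miR-155-5p: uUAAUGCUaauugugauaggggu
miR-150-3p: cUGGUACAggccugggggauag
miR-146a-5p: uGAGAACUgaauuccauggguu
miR-144-3p: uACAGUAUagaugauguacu
miR-451a: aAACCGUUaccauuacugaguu

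The other strands shown had seeds found once among the 23. The hairpins of miR-144 and miR-451a lie side by side on chromosome 11, with mature strands at chr11:78073047-78073066 and chr11:78073186-78073207 on the plus strand. The mature strand miR-146a-5p also lies on chromosome 11, at chr11:43374435-43374456 on the minus strand, and miR-142a-3p at chr11:87756903-87756925 on the plus strand. miR-155-5p lies at chr16:84714143-84714165, miR-150-3p at chr7:45121798-45121819 and miR-223-3p at chrX:96242884-96242905, all on the plus strand.

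The depth of the libraries differed. The lists held between 84593 OCRs in replicate 6 and 132852 in replicate 1. The background that the fold enrichments imply lay between 4.44 reads in replicate 2 and 20.4 reads in replicate 1, and the summits of the member OCRs rest on between 15 and 3784 reads. Intensity is given as the fold enrichment of the deposited lists, the reads at a summit plus 1, divided by the background of that library plus 1. It is also given as its percentile among all OCRs of the same library, which makes libraries of unequal depth easier to set side by side. As a check of the labelled cell type, all 8 listed progenitor genes (among them Kit, Gata2 and Runx1) had an OCR within 1 kb of a transcript start in all 7 libraries. The 3 B cell genes and the 3 muscle genes listed had none in any library, and of the hepatocyte genes Apoa1 had one in 2 libraries. Of the T cell genes, Lck had one in all 7 libraries and Cd3e and Cd3g in none.

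Of the 43 OCRs, 26 had a peak in all 7 libraries, 13 in 2 to 6 libraries and 4 in 1 library. Among all merged OCRs 46.2% were found in all 7 libraries and 17.9% in 1 library. The 26 shared OCRs divided into 5 at Mir142hg, 2 at Mir17hg, 3 at Mir223, 4 at Mir155, 7 at Mir150, 2 at Mir146 and 3 at Mir144/Mir451a. All member windows held at least 2 shared OCRs, where 46.2% of the 2202 annotated microRNA genes had at least 2 within the same distance, 60.0% had at least 1 and the median microRNA gene had 1. Their counts placed Mir17hg and Mir146 at percentile 59.1 of microRNA genes, Mir223, Mir144 and Mir451a at 69.2, Mir155 at 77.9, Mir142hg at 84.7 and Mir150 at 95.0. The window of Mir150 is dense in other genes. The OCRs found in fewer than 7 libraries were weak, with mean fold enrichments from 1.97 to 6.15. Of the 4 found in 1 library, 3 were in replicate 1, the library with the most OCRs, and the other was in replicate 7. The 26 shared OCRs had a median width of 1065 bp, a median GC content of 53.5% around the summit and a median percentile of 75.1. The medians of all 66979 shared OCRs were 798 bp, 50.7% and 66.0.

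By their summits, 4 of the 26 shared OCRs lay within 1 kb of an annotated member start, 7 at 1 to 10 kb and 15 beyond 10 kb. Each OCR was also assigned by the transcript start nearest to its summit. In 6 OCRs the start within 1 kb belonged to the member, its host transcript or a microRNA inside it. In 6 it belonged to another gene, and 14 lay over 1 kb from every start. The map of OCRs by distance shows these classes for each locus.

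**Figure D1:**
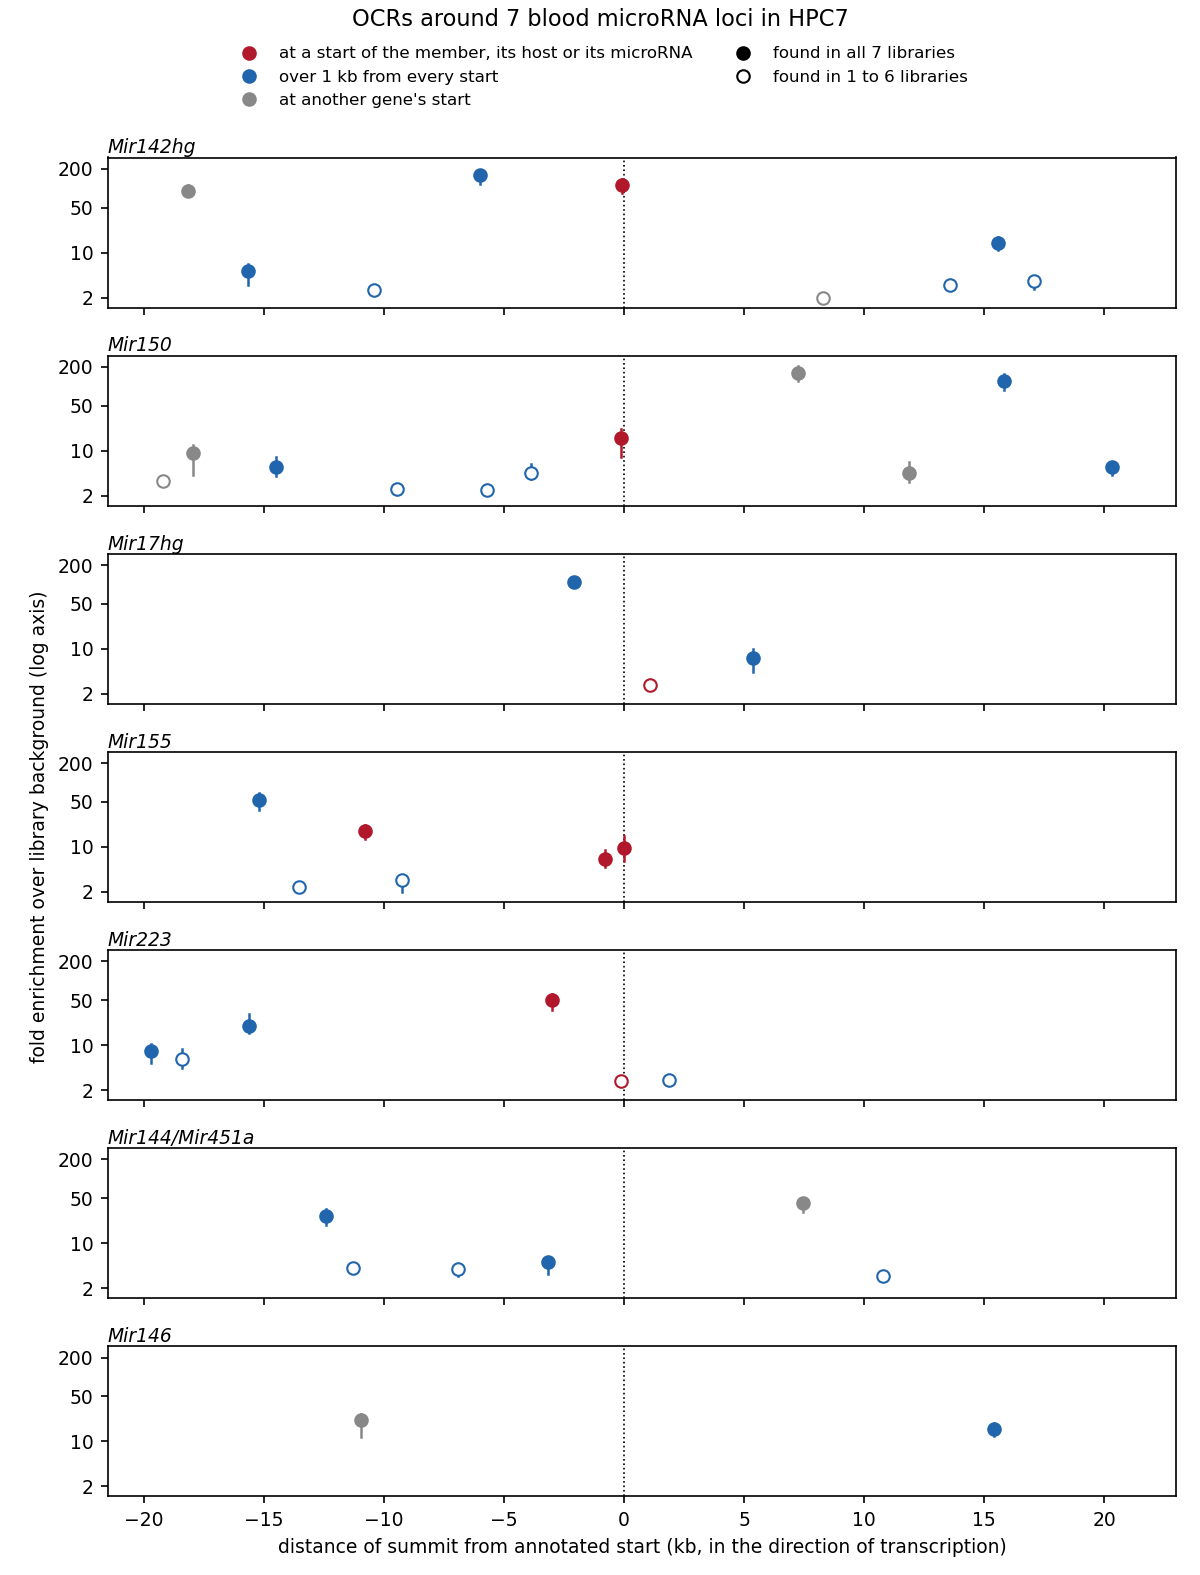
Each point is an OCR, placed by the distance of its summit from the annotated start (x axis, kb, in the direction of transcription) and by its mean fold enrichment (y axis, log scale), with a line from the lowest to the highest library. Filled points were found in all 7 libraries and open points in 1 to 6. At Mir142hg an OCR at the start and one about 6 kb before it both lie at 85.3 or above in every library, while Mir17hg, Mir146 and Mir144/Mir451a have no summit within 1 kb of the start.

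An OCR overlapped the 1 kb around the annotated start in all 7 libraries at Mir142hg, Mir17hg, Mir155 and Mir150. At Mir223 there was one in 2 libraries, and at Mir146, Mir144 and Mir451a in none. The share of annotated genes with such an OCR in all 7 libraries was 18.8% for microRNA genes, 16.2% for lincRNA genes and 51.6% for protein-coding genes. Thus 4 of the 8 members had a shared OCR at their annotated start. Mir142hg and Mir17hg are annotated as lincRNA genes and the other members as microRNA genes.

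Mir142hg, at chr11:87755577-87757270 on the plus strand, carried the most intense OCR of the member loci that was not at the start of another gene. This OCR, chr11:87747730-87752616, is intergenic and had its summit 6005 bp before the annotated start. Its fold enrichment was 177 in replicate 1, 142 in replicate 2, 170.4 in replicate 4, 195 in replicate 5, 115 in replicate 6, 150.4 in replicate 7 and 170.3 in replicate 8. The mean of 160.1 ± 26.3 (SD, n = 7) placed it at percentile 98.7 of its libraries, and replicate 6 was the lowest. The summit differed between libraries with an SD of 0.535 bp. The width of the merged OCR was at percentile 99.2 of the OCRs shared by all 7 libraries.

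The OCR at the start of Mir142hg, chr11:87753806-87763163, had its summit 91 bp before the start. Fold enrichment there was 137, 92.8, 111, 138, 85.3, 96.4 and 126 in replicates 1, 2, 4, 5, 6, 7 and 8, with a mean of 112 ± 21.8 (SD, n = 7). In every library this was below the OCR about 6 kb upstream, although the ranges over libraries overlapped. The merged region is 9358 bp long and reaches over the Mir142 hairpin to the start of Tspoap1. Replicates 1, 4, 5, 7 and 8 had it as a single peak, and replicates 2 and 6 as several. In replicate 2 the peak over the hairpin of Mir142 had its summit before the hairpin, with a fold enrichment of 45.4, and the peak at Tspoap1 had 34.9. The remaining shared OCRs of the locus were one at the start of Supt4a, a transcription elongation factor gene, 18154 bp upstream, with 90.9 ± 12.7 (SD, n = 7), one in an intron of Tspoap1 at 14.3 ± 2.89 and one in an intron of Supt4a at 5.21 ± 1.09.

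Mir17hg, at chr14:115042879-115046727 on the plus strand, is the host of miR-17, miR-18a, miR-19a, miR-20a, miR-19b-1 and miR-92a-1. Its main OCR, chr14:115039901-115043160, spanned the annotated start, with a summit 2063 bp before it. Fold enrichment was 112, 104, 131, 105, 91.7, 96.8 and 121 in replicates 1, 2, 4, 5, 6, 7 and 8, and the mean was 109 ± 13.8 (SD, n = 7), at percentile 96.2. Replicate 4 was highest and replicate 6 lowest. The 100 bp on either side of the summit had a GC content of 76.1% and 29 CpG dinucleotides, at percentile 98.3 of GC among shared OCRs. By its summit this OCR counts as over 1 kb from every start. The other shared OCR, chr14:115046856-115049678, begins just past the end of the gene and was weak, with 7.09 ± 2.07 (SD, n = 7). A further OCR over the hairpins, with its summit 39 bp from the start of Mir19a, was called in replicate 7 at 2.77.

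Mir223, at chrX:96242817-96242926, lies inside the transcript F630028O10Rik on the same strand, and the OCRs at both starts differed. At the start of the host transcript the OCR chrX:96238965-96240593, with its summit 3005 bp before the hairpin, had fold enrichments of 46.9, 48.9, 63.2, 48.9, 35.0, 45.9 and 61.9 in replicates 1, 2, 4, 5, 6, 7 and 8. The mean was 50.1 ± 9.73 (SD, n = 7), at percentile 89.0. At the hairpin itself a peak was called in replicate 1 at 2.43 and in replicate 4 at 3.08, and in no other library. An intergenic OCR 15608 bp upstream, chrX:96226736-96227665, had 15.2, 16.7, 18.6, 19.5, 16.6, 22.3 and 30.4 in the same order of replicates. Its mean was 19.9 ± 5.20 (SD, n = 7), and replicate 8 was the highest. An OCR 19724 bp upstream had 8.10 ± 1.75 (SD, n = 7).

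Mir155, at chr16:84714140-84714204, lies in an exon of the lincRNA Mir155hg, whose first annotated start lies 10973 bp before the hairpin. An OCR at this host start, chr16:84702567-84703719, had fold enrichments of 18.2, 14.1, 21.5, 19.3, 13.1, 17.6 and 22.0 in replicates 1, 2, 4, 5, 6, 7 and 8, with a mean of 18.0 ± 3.39 (SD, n = 7) at percentile 76.4. The most intense OCR of the locus lay farther upstream, at chr16:84698478-84699311, 15203 bp before the hairpin and 4230 bp from the nearest transcript start. Fold enrichment there was 50.1, 50.3, 68.4, 53.2, 37.7, 52.7 and 67.0, with a mean of 54.2 ± 10.6 (SD, n = 7) at percentile 89.8. No library of this OCR fell into the range of the host start. A pair of OCRs lay beside the hairpin. That at 17 bp past its start had 9.73 ± 3.03 (SD, n = 7), and that 776 bp before it, within 1 kb of a later start of Mir155hg, had 6.48 ± 1.60 (SD, n = 7).

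Mir150, at chr7:45121757-45121821, had an OCR with its summit 142 bp before the hairpin, chr7:45119284-45122940. Fold enrichment was 21.5, 12.1, 14.3, 17.9, 7.98, 14.0 and 21.4 in replicates 1, 2, 4, 5, 6, 7 and 8, with a mean of 15.6 ± 4.97 (SD, n = 7) at percentile 72.5. Replicates 1 and 8 were high and replicate 6 was low. A start of the predicted gene Gm45552 also lies within 1 kb of this summit. More intense OCRs of the window lay at other genes. That at Rpl13a, the gene of a ribosomal protein, 7233 bp downstream, had 159 ± 29.9 (SD, n = 7). The OCR chr7:45134353-45138785, 15838 bp downstream, had 143, 122, 124, 156, 86.2, 104 and 125, with a mean of 123 ± 23.2 (SD, n = 7) at percentile 97.1. Its summit lay 1163 bp from the nearest transcript start, that of Flt3l, the gene of the FLT3 ligand, and the region spans several starts of that gene and of Gm45713. It therefore counts as distal by its summit, and it enters the values of Mir150 in the next comparison. The other shared OCRs of the window were weaker. One at the start of Fcgrt, 17940 bp upstream, had 9.38 ± 2.64 (SD, n = 7) and one within 1 kb of a start of Flt3l, 11892 bp downstream, had 4.55 ± 1.06 (SD, n = 7). Those over 1 kb from every start, 14518 bp upstream and 20329 bp downstream, had 5.63 ± 1.32 and 5.51 ± 0.831 (SD, n = 7). The latter crosses the edge of the window, and only in replicates 7 and 8 did its peak overlap the window itself. As a merged region it is still counted among the shared OCRs of Mir150.

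Mir146, which encodes miR-146a, at chr11:43374397-43374461 on the minus strand, had the fewest OCRs. An intergenic OCR 15424 bp downstream, chr11:43358650-43359311, had fold enrichments of 14.6, 16.7, 19.4, 13.7, 12.0, 13.0 and 19.2 in replicates 1, 2, 4, 5, 6, 7 and 8. The mean was 15.5 ± 2.97 (SD, n = 7), at percentile 73.8, and replicates 4 and 8 were high. The other OCR, chr11:43384901-43385877, lay 10965 bp upstream, within 1 kb of the start of the predicted gene Gm12148, and had 23.6, 19.3, 26.5, 19.3, 11.7, 23.6 and 26.2. Its mean was 21.5 ± 5.18 (SD, n = 7), and replicate 6 fell below the other libraries.

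The Mir144/Mir451a locus had no OCR at its hairpins, at chr11:78073005-78073070 and chr11:78073170-78073241. The nearest shared OCR, chr11:78069600-78070927, with its summit 3155 bp before Mir144, was weak. Fold enrichment there was 6.18, 3.86, 5.44, 6.09, 3.29, 4.22 and 6.12 in replicates 1, 2, 4, 5, 6, 7 and 8, with a mean of 5.03 ± 1.22 (SD, n = 7) at percentile 35.2. A more intense OCR 12433 bp upstream, chr11:78059946-78061411, had 29.0, 23.5, 21.1, 33.9, 18.9, 22.6 and 34.2, with a mean of 26.2 ± 6.21 (SD, n = 7) at percentile 81.9. An OCR at the start of Eral1, 7465 bp downstream, had 41.5 ± 7.90 (SD, n = 7). The percentile map shows the spread of these OCRs over the libraries.

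**Figure D2:**
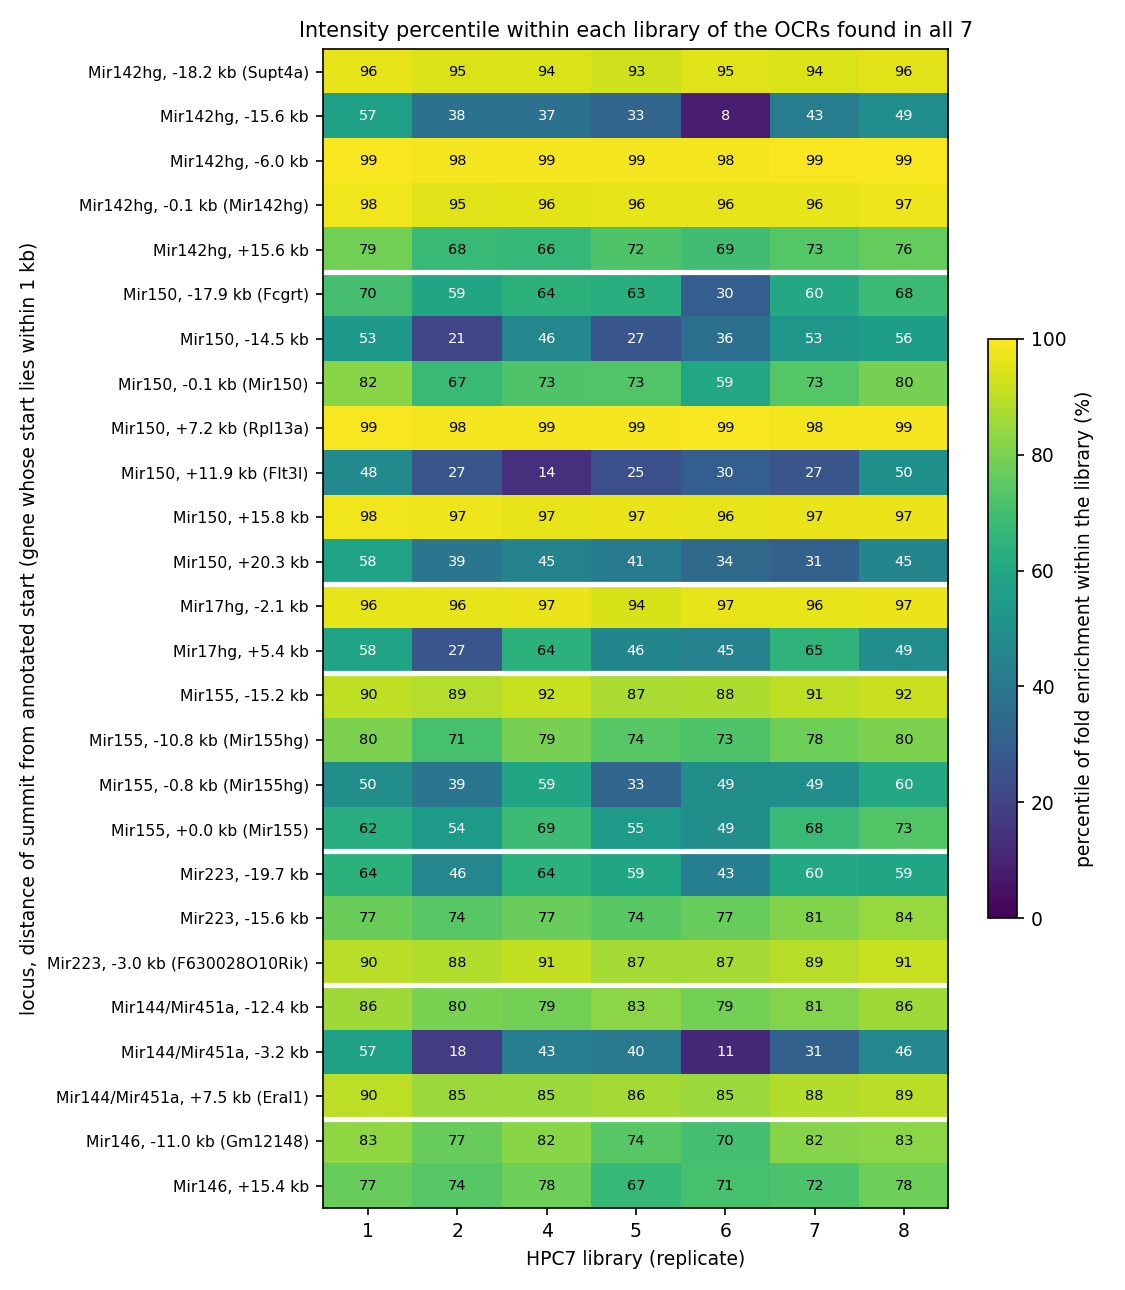
Rows are the 26 OCRs found in all 7 libraries, ordered by locus and by distance of the summit from the annotated start, and columns are the 7 libraries. Colour and printed value give the percentile of the fold enrichment within that library. The OCR 6005 bp before Mir142hg stays between 98.3 and 99.1, while that 3155 bp before Mir144 ranges from 11.3 to 57.0.

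The loci were then compared within libraries by their most intense OCR not at the start of another gene. The order by mean fold enrichment was Mir142hg with 160.1, Mir150 with 123, Mir17hg with 109, Mir155 with 54.2, Mir223 with 50.1, Mir144/Mir451a with 26.2 and Mir146 with 15.5. Replicate 6 had the lowest fold enrichment at each of the 7 loci, and it was also the library with the fewest OCRs, so that differences were taken within a library. In 20 of the 21 pairs of loci the locus with the higher mean was the higher one in 7 of 7 libraries (p = 0.0156 for each by exact two-sided permutation of signs, Benjamini-Hochberg adjusted p = 0.0164 over 21 pairs). This is the smallest p that 7 libraries allow. It says only that the order of the chosen regions held across libraries of this line. The rule that chose the regions was settled after the values were seen. The 21 pairs also share the same 7 loci and are not independent. Fold enrichment in bulk libraries does not tell whether a region was open in fewer cells or less open in each.

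Mir142hg exceeded Mir150 by 1.31-fold (1.21 to 1.41 at 1 SD). Mir150 and Mir17hg did not differ beyond their spread, with a ratio of 1.12 (0.945 to 1.32 at 1 SD), and Mir150 was higher in 5 of 7 libraries (exact permutation of signs, adjusted p = 0.141). Mir17hg exceeded Mir155 by 2.03-fold (1.82 to 2.26 at 1 SD). Mir155 exceeded Mir223 by 1.08-fold (1.05 to 1.12 at 1 SD), a small difference that had the same sign in all 7 libraries. Mir155 lies on chromosome 16 and Mir223 on chromosome X, and an effect of chromosome copy number was not tested. Among OCRs of the same chromosome their mean percentiles were 90.0 and 87.5. Mir223 exceeded Mir144/Mir451a by 1.93-fold (1.53 to 2.43 at 1 SD), and Mir144/Mir451a exceeded Mir146 by 1.67-fold (1.29 to 2.17 at 1 SD). From the top of the order to its end, Mir142hg exceeded Mir146 by 10.3-fold.

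**Figure D3:**
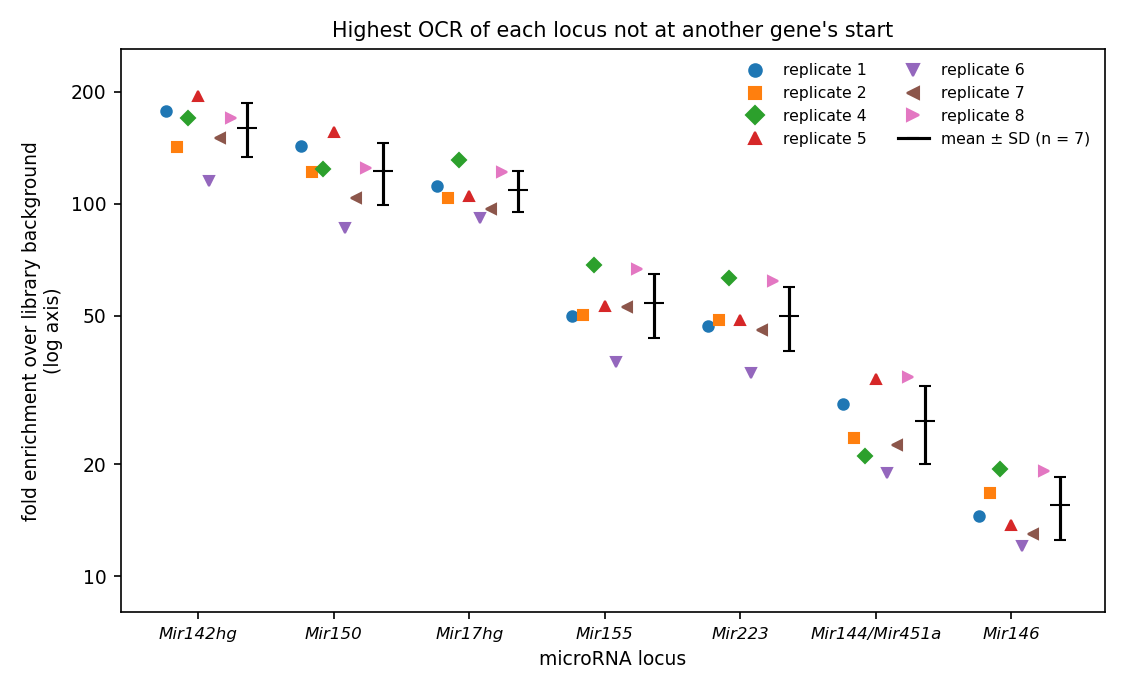
Fold enrichment (log axis) of the most intense OCR of each locus that is not at the start of another gene, in each of 7 libraries, with the mean and SD in black. Mir142hg, Mir150 and Mir17hg lie at 86.2 or above in every library, and Mir146 lies between 12.0 and 19.4.

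The place of Mir150 in this order rests on the OCR beside Flt3l. When an OCR was given to another gene wherever any base of it lay within 1 kb of that gene's start, a rule added after the values were seen, the value of Mir150 was 5.66 ± 1.30 (SD, n = 7), at percentile 42.1. This rule also takes the OCR at the hairpin of Mir150 away from it, since that OCR lies within 1 kb of the start of Gm45552. Mir150 was then below the other 6 loci in all 7 libraries. The values of the other loci were the same under both rules. With OCRs at other genes kept, Mir142hg exceeded Mir150 by 0.0049 on the log10 scale (exact permutation of signs, adjusted p = 0.813), and Mir150 exceeded Mir17hg by 0.16 (adjusted p = 0.0173, exact permutation). With OCRs within 1 kb of the annotated start, or with windows of 10 kb, Mir150 minus Mir17hg was -0.86. By these start OCRs, Mir142hg was above Mir17hg in replicates 1, 5 and 8 and below it in replicates 2, 4, 6 and 7. Windows of 10 kb hold neither the OCR about 15 kb upstream of Mir155 nor the one at its host start, and with them Mir155 was lower than Mir223 by 0.72 on the log10 scale. With these windows Mir17hg exceeded Mir155 by 1.06 and Mir223 exceeded Mir144/Mir451a by 1.00 on that scale.

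**Figure D4:**
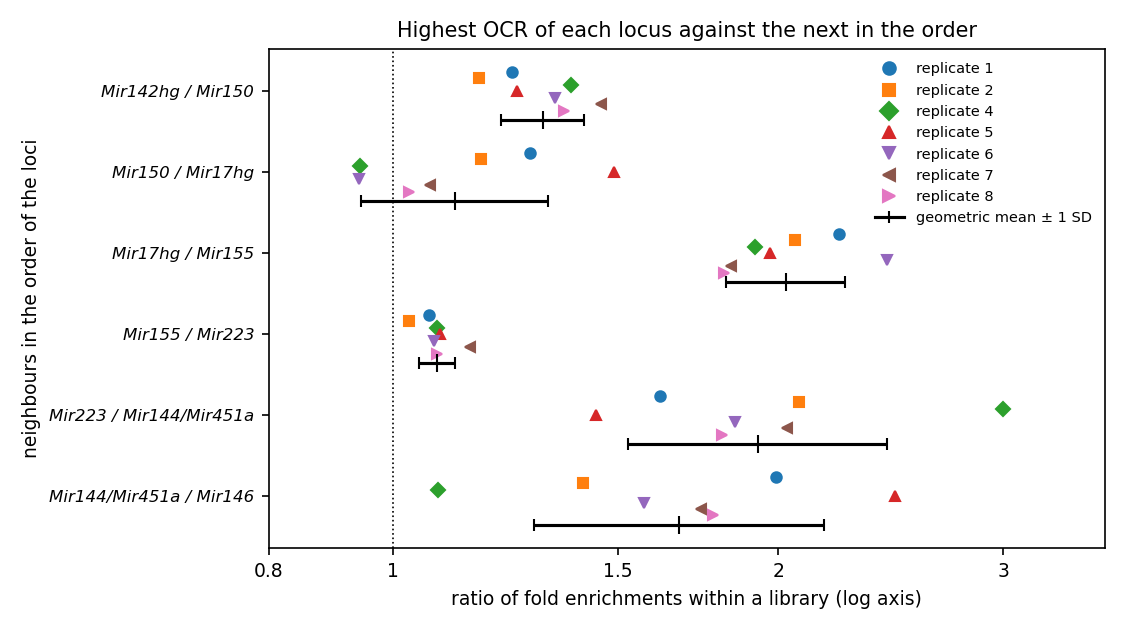
Ratio of the fold enrichments of neighbouring loci in the order, within each of 7 libraries (x axis, log scale), with the geometric mean and 1 SD in black and equality as a dotted line. The ratios of Mir150 to Mir17hg fall on both sides of 1, and those of Mir155 to Mir223 lie between 1.03 and 1.15.

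The names of the peaks begin with VD in replicates 1, 2 and 4 and with EtOH in the other 4, prefixes that the labels do not explain. Within the VD libraries Mir155 exceeded Mir223 by 1.06-fold and within the EtOH libraries by 1.10-fold, each in every library. For Mir150 over Mir17hg the ratios were 1.12 and 1.11, higher in 2 of 3 and in 3 of 4 libraries. The ratios of the prefixes lay further apart at the lower end of the order. Mir223 exceeded Mir144/Mir451a by 2.16-fold within the VD libraries and by 1.77-fold within the EtOH libraries, and Mir144/Mir451a exceeded Mir146 by 1.45-fold and 1.86-fold, each in every library. On the log10 scale, Mir223 minus Mir144/Mir451a was 0.335 ± 0.135 (SD, n = 3) for VD and 0.248 ± 0.0634 (SD, n = 4) for EtOH. Mir144/Mir451a minus Mir146 was 0.161 ± 0.133 (SD, n = 3) for VD and 0.270 ± 0.0849 (SD, n = 4) for EtOH. Both gaps between prefixes were smaller than the SD within the VD libraries. Whether the prefixes differ was not tested.

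Short sequence motifs of blood transcription factors were searched for, on both strands, within 100 bp of the summits of the 26 shared OCRs, beside the share of all 66979 shared OCRs that hold them. The RUNX letters TGTGGT were found in 11 of 26 OCRs (27.0% of all shared OCRs), the ETS letters GAGGAA or CGGAAG in 8 (35.2%) and the GATA letters AGATAA or TGATAA in 6 (22.6%). The C/EBP letters TTGCNNAA were found in 4 (7.04%), the AP-1 letters TGAGTCA or TGACTCA in 3 (8.98%) and the E-box CAGCTG in 1 (14.7%). Counts are out of the 26 OCRs, and each percentage in parentheses is the share of all 66979 shared OCRs. Because the OCRs come from 7 loci and motifs may overlap, these counts are given as a description. All 3 OCRs with AP-1 letters lay at Mir155. RUNX letters were found at 5 of the 7 loci, namely Mir142hg, Mir223, Mir155, Mir150 and Mir146. Each locus held between 2 and 7 shared OCRs, and the share of other loci with such letters was not computed. The count of loci is therefore not read as a trait of these loci.

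Some of the matches are shown as examples, chosen after their values were seen, on the plus strand of mm10, 5′ to 3′, with the match in capitals. Matches in other OCRs, such as those beside the Mir155 hairpin, are not shown. Those of the OCR 6005 bp before Mir142hg (chr11:87749531-87749558) and of the OCR at the host start of Mir223 (GATA at chrX:96239829-96239856, ETS at chrX:96239834-96239861) read:
Mir142hg RUNX: cccctcttggaACCACAgccccatgacg
Mir223 GATA: tagcctcaactTTATCTtcctcatttct
Mir223 ETS: tcaactttatcTTCCTCatttctgtttc

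The GATA and ETS letters at Mir223 share bases of 1 stretch, with centres 31 and 36 bp past the summit. In the OCR about 15 kb before Mir155 (windows chr16:84698917-84698944, chr16:84698867-84698895, chr16:84698977-84699004 and chr16:84699001-84699028), letters of 4 kinds lay within 100 bp of the summit:
Mir155 GATA: caggccagttgAGATAAgagtgtggctg
Mir155 AP-1: tttactgcaagTGACTCAtcatttcccaa
Mir155 ETS: gggggtaggcaGAGGAActtgctctgta
Mir155 RUNX: tgtaaggggtaACCACAgagccaaagac

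The weak OCR 3155 bp before Mir144 held a GATA match close to its summit (chr11:78069819-78069846), and the OCR downstream of Mir146 held ETS and RUNX matches (chr11:43358929-43358956 and chr11:43358951-43358978):
Mir144 GATA: gggatcccaggTTATCTtgcccaggccc
Mir146 ETS: ccgttactaatCGGAAGtcccaccactg
Mir146 RUNX: ccactgtgcttTGTGGTttccctccact

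The centre of the GATA match at Mir144 lay 17 bp before the median summit. That summit differed between libraries with an SD of 197 bp, so the distance is not precise. A further GATA match and a C/EBP match lay within 100 bp of it. No letters of the 6 kinds were found within 100 bp of the summit at the start of Mir142hg, at the start of Mir150 or in the OCR 12433 bp before Mir144, which says no more than that these letters are not in those windows. The main OCR of Mir17hg held 1 ETS match, at chr14:115040879-115040906, and none of the other 5 kinds.

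The enzymes and partners that make microRNAs were compared as a list. All 10 listed genes had an OCR within 1 kb of a transcript start in all 7 libraries, where 55.9% of protein-coding genes did. Start intensity was highest at Tarbp2, a partner of Dicer, with a fold enrichment of 219 ± 43.9 (SD, n = 7), and lowest at Ago4 with 4.63 ± 0.636 (SD, n = 7). Of 25 other microRNA genes known from blood, 24 were matched to the annotation, 9 of them had a start OCR in all 7 libraries and 13 in none, where 18.8% of microRNA genes had one in all 7. Among those 9 it was highest at Mir22, with 186 ± 33.9 (SD, n = 7), and lowest at Mir106b, with 6.01 ± 1.72 (SD, n = 7). The other 2 had one in some libraries, Mir21a in 6 with a fold enrichment of 49.3 ± 53.2 (SD, n = 6) and Mir126a in 1 with 2.76. Several genes of this list lie in shared clusters and share an OCR, so that they are not independent of each other.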

How the data were processed

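Bulk ATAC-seq of HPC7 was represented by 7 peak lists. The authors removed adapters (Cutadapt), mapped the reads on mm10 (BWA-mem) and ran MACS2 on every library by itself; versions and options are not given in the sources used here. The deposited lists hold a fold enrichment (a ratio to background), a -log10 p, a -log10 q and a score derived from it, and the offset of the summit. In all 7 lists each deposited fold was a whole multiple of a single step (100%, tolerance 0.02 of a step), so it is relative to 1 background per library and not to a local one.

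Genes and starts came from GENCODE M21. Members and lists were chosen with earlier results of these data known. That an OCR belongs to the gene whose start lies nearest to its summit, within 1 kb, was settled after the values had been seen. Named were the members, OCRs within 1 kb of their start, up to 3 of the most intense shared OCRs per locus, genes whose start lies within 1 kb of an OCR, and the list genes of highest and lowest intensity; remaining shared OCRs of a locus were added. Log10 differences were tested by exact permutation of their signs over 7 libraries (128 patterns, two-sided) and p-values adjusted by Benjamini-Hochberg over 21 pairs. Functions were tested on simulated data and against bedtools 2.31.1. Alternatives were other windows, thresholds, merging rules and each library left out. Precision is given by the SD over libraries. Software was pandas 2.3.3, numpy 2.4.6, scipy 1.17.1, pysam 0.24.0 and matplotlib 3.10.9 under Python 3.11.15. The single-nucleus data were not used here. Some matches and neighbouring genes are not reported here.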

Additional observations from a re-analysis of the deposited data

Results flagged for a closer look

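In the 22 sets of 7 library values examined (fold enrichment, percentile and number of peaks for each locus, and the number of peaks over all loci), 2 held a library far from the others by Dixon's test, and chance gives about 1 in 20. The window of Mir150 held 15 peaks in replicate 8, where the next library had 11. The percentile of the main OCR of Mir17hg was 94.0 in replicate 5, where the next lowest library had 96.1. The fold enrichment of that OCR in replicate 5 was 105, inside the range of the other libraries.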

How the results depend on the processing

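Of 84 values recomputed from OCRs under a setting other than leaving out a library, 63 kept their direction and side of the threshold, or stayed close to the reported value, as did all 70 recomputed without 1 library. Not counted are 7 values of the setting that drops libraries without an OCR, since no library lacked one. Also not counted are 6 that rest on a stand-in, the lowest fold enrichment of the library where a locus has no OCR. The 63 do hold values equal to the reported ones, where a setting left the OCR of a locus in place. Examples are Mir17hg minus Mir155 with 50 kb windows and the percentiles of loci other than Mir150 under the any-base rule. With windows of 10 kb the loci held 21 OCRs, 11 of them in all 7 libraries, and with 50 kb 104 and 63. Joining peaks at 50% reciprocal overlap gave 66 OCRs. With an equal number of peaks from each library there were 33 OCRs, 25 of them shared. In the tally of 63, the change from 43 to 33 OCRs counted as close. The move of Mir142hg from percentile 98.7 to 99.8, among OCRs over 1 kb from every start, did not. Close was thus a wider margin for counts than for percentiles. Leaving out each library in turn gave 41 to 43 OCRs, 26 to 27 shared ones, 20 pairs past the threshold each time (a pair with 1 sign in all 7 libraries keeps it in any 6 by construction) and a share of microRNA genes with a start OCR of 18.8% to 20.3%; at 3 kb around the start this share was 32.6%. Mir150 minus Mir17hg (log10) was -0.86 for OCRs within 1 kb of the annotated start and with 10 kb windows, -1.29 under the any-base rule, and 0.16 with OCRs at other genes kept (exact permutation, adjusted p = 0.0173). Keeping those, Mir142hg minus Mir150 was 0.0049 (exact permutation, adjusted p = 0.813). Mir155 minus Mir223 was -0.72 with 10 kb windows. Mir17hg minus Mir155 was 1.06 with 10 kb windows and for OCRs within 1 kb of the annotated start. Mir223 minus Mir144/Mir451a was 1.00 with 10 kb windows. It was 0.082 with OCRs at other genes kept (exact permutation, adjusted p = 0.0492). Pairs with a stand-in are not read (Mir144/Mir451a, Mir146 and Mir223 for OCRs within 1 kb of the start, Mir146 with 10 kb windows). With such pairs included, 17 of the 21 pairs were past the threshold for OCRs within 1 kb of the start. Ranked against OCRs over 1 kb from every start, the OCRs of the order were at percentiles 99.8 for Mir142hg, 99.5 for Mir150, 99.3 for Mir17hg, 96.6 for Mir155, 96.1 for Mir223 (itself at its host start), 90.1 for Mir144/Mir451a and 81.7 for Mir146. Mir150 was at 96.2 on its own chromosome and at 42.1 under the any-base rule. These shifts follow by construction from which OCRs each setting admits or ranks against. No paired analysis was possible between groups of libraries because the labels place all 7 in 1 group and do not explain the prefixes; the comparison of loci was paired within libraries.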
